A study of Homo sapiens with 18 samples.

Results

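RUNX1 knockout clone 2 (RUNX1 KO2) was compared with wild type (WT) MCF10A cells, a non-tumorigenic line of human mammary epithelium. The comparison holds 8 of the 18 RNA-seq libraries of the series, 4 of RUNX1 KO2 and 4 of the WT cells of the RUNX1 experiment, and its members are all 18117 genes that the authors' deposited table of this comparison lists, of 19401 genes listed in any of the 3 tables of the series. The other tables compare a second RUNX1 clone (RUNX1 KO1, 4 libraries) with the same 4 WT libraries, and CBFB KO cells (3 libraries) with 3 WT libraries of their own. All 3 knockouts were made with CRISPR-Cas9 in MCF10A cells, and no group carries another treatment. RUNX1 KO2 is a colony grown from a single cell, kept for fewer than 30 passages, so the 4 libraries stand for 1 clone, and what differs between clones cannot be told apart from the loss of RUNX1. The tables give 1 mean over all 8 libraries, 1 fold change and 1 standard error (SE) per gene, without values per library. The p-values therefore measure the spread between these libraries only, which may be technical, since nothing used here says that they came from separate cultures.

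RUNX1 is a transcription factor with a Runt domain that binds DNA. CBFB is the subunit that does not touch DNA itself but strengthens the binding. The complex recruits both activators and corepressors, among them the Groucho (TLE) proteins, so that a given target can rise or fall when the factor is lost. It is best known for blood cell formation, and in the breast RUNX1 and CBFB are recurrently mutated in tumours.

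Group levels are given below as normalized counts, worked out from the deposited mean and fold change for groups of equal size. For the fold changes (log2, KO2 over WT) the SE is the deposited one. The fold changes were shrunken towards 0 before deposition. The 1161 genes with a mean under 0.3 have log2 values of at most 0.12 in size, so the fold of a rarely read gene is understated. A gene is said to have risen, fallen or been called only if the deposited adjusted p (DESeq2, Benjamini-Hochberg) is below 0.05 and the change at least 2-fold, the thresholds of the study. Of the 18117 genes, 15636 had an adjusted p. In these bulk samples, fewer cells expressing a gene and less RNA per cell cannot be told apart.

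The targeted gene itself was not lower. RUNX1 stood at 708 normalized counts in WT and 971 in KO2, a log2 fold change of 0.46 ± 0.13 (SE) with an adjusted p of 0.0047, under the 2-fold threshold. In RUNX1 KO1 the change was 0.54, and in CBFB KO 0.17. A count over the whole gene does not show an edit in the DNA or the protein, so it checks neither label. The paper reports an immunoblot of RUNX1 deletion in MCF10A cells, and colonies genotyped by PCR and western blot. Which clone the immunoblot shows is not given in the sources used here. RUNX1 KO2 below means the libraries labelled so. The guides that the study lists for RUNX1 are shown because they define the knockout.

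CRISPR67: gatttctttttaggttgcag
CRISPR69: gttacaatgaggattctctct

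Neither guide was found on either strand of the 17 RUNX1 transcripts of GENCODE 29, for the second of them after its first base was set aside. These transcripts are spliced, so a guide in an intron or across the border of an exon could not match. Their position in the genome was not looked up here for want of a genome sequence, and which guide made clone 2 is not given in the sources used here. The partner CBFB stood at 1023 in WT and 839 in KO2 (log2 fold change -0.29 ± 0.31), whereas in CBFB KO it fell by 4.88 on the log2 scale. RUNX2, a paralog known for bone formation, was low in both groups, at 21.4 and 27.9. RUNX3 was at the floor of the table, with 0.1 counts in each. Among the 7 tested corepressors of the Groucho and ETO type none was called, and TLE3, with a log2 fold change of -0.77 (adjusted p 0.0010), was the member that passed the adjusted p alone.

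The label of the cells was compared with marker lists. Of 12 basal mammary markers 11 were tested, and their summed level was 212409 in WT and 282087 in KO2. KRT14, the remaining one, has no row in this table. Of the 11 tested basal markers 3 rose and 1 fell, and the log2 fold changes were positive in 7 and negative in 4. All 19 epithelial markers were tested, at 37192 in WT and 51914 in KO2 in sum. Of 17 luminal markers 11 were tested, summing to 103100 and 162036, mainly from KRT7, KRT8 and KRT18. Of these 11 luminal markers 1 rose and 1 fell. Their log2 fold changes were positive in 6 and negative in 5, with a median of 0.03. Of 20 markers of leukocytes, fibroblasts and endothelium 4 have no row (PTPRC, MS4A1, COL1A2 and COL3A1), and 7 more, among them CD3E, CD79A, LUM, PECAM1 and VWF, have means of at most 0.81 and no adjusted p. The other 9 summed to 1058 in WT and 1379 in KO2.

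RUNX1 KO2 differed from WT in 857 genes, of which 610 rose and 247 fell. That is 5.48% of the genes tested, 3.90% for the rises and 1.58% for the falls. With the adjusted p alone, 2319 genes passed (14.8%), 1369 higher (8.76%) and 950 lower (6.08%). Most called genes had a mean under 100. The median mean was 52.4 normalized counts for the rises and 23.9 for the falls, against 293 over all genes tested, and 569 of the calls lie under a mean of 100, made up of 382 rises and 187 falls. Above that level 228 genes rose and 60 fell. The share called was 10.5% of the 5412 genes with a mean under 100, 3.47% of the 6692 from 100 to 1000 and 1.59% of the 3339 from 1000 to 10000. Of the 193 genes above 10000, 3 rose and none fell. The plot of fold change against mean shows this funnel.

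**Figure D1:**
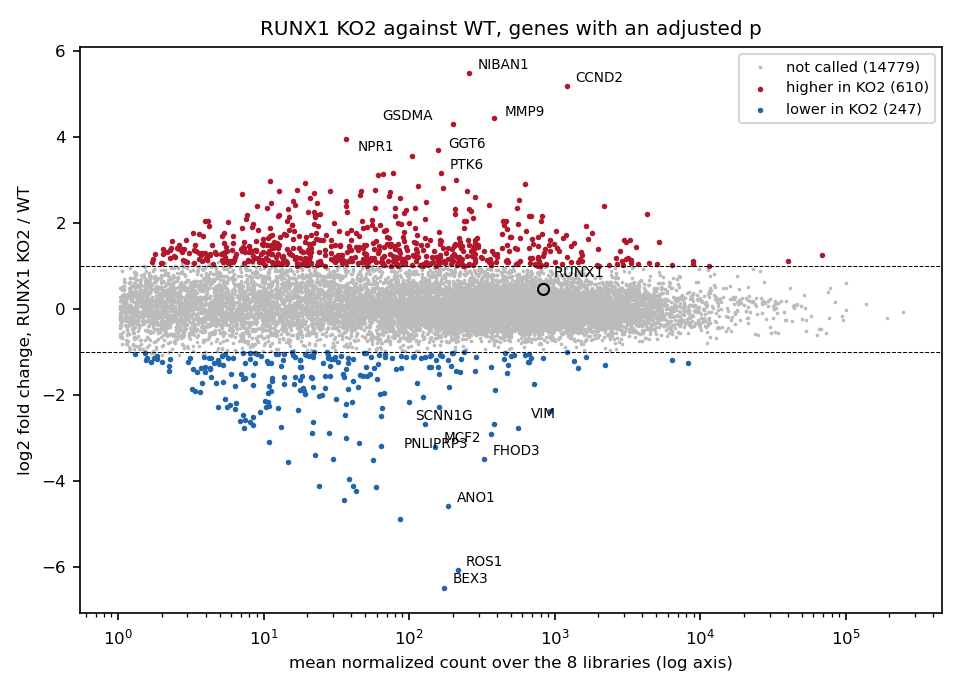
Log2 fold change (RUNX1 KO2 over WT, vertical axis) against the mean normalized count over the 8 libraries (log axis) for the 15636 genes with an adjusted p. Red and blue points are the 610 genes that rose and the 247 that fell, dashed lines mark a 2-fold change, and RUNX1 (circle, 0.46) lies among the genes that were not called.

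The leading rises started from low levels in WT. NIBAN1, a stress-induced protein, went from 11.2 to 509 normalized counts, a log2 fold change of 5.50 ± 0.36 with an adjusted p of 6.96e-49. CCND2, cyclin D2, which drives the G1 kinases CDK4 and CDK6, went from 64.7 to 2361, or 36.5-fold (5.19 ± 0.23), and was the most abundant gene among the leading rises. Next came MMP9, the gelatinase that cuts basement membrane collagen, with 33.2 in WT and 730 in KO2 (4.46 ± 0.30), and GSDMA, a pore-forming gasdermin of skin, with 19.4 and 384 (4.31 ± 0.23).

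The next rises were of mixed function. The gamma-glutamyltransferase GGT6 went from 22.7 to 294, NPR1, a receptor for natriuretic peptides, from 16.2 to 193, and PTK6, a cytoplasmic tyrosine kinase of epithelia, from 33.1 to 298. The small heat shock protein CRYAB rose from 46.8 to 374 and the activin antagonist FST from 146 to 1097. The remaining 6 of the 15 were the TNF family cytokine TNFSF15, the axonal transport adaptor FEZ1, the mucosal keratin KRT13, the TEAD cofactor VGLL1, the epidermal protease inhibitor A2ML1 and IL1B, with log2 fold changes from 2.86 down to 2.50. SEs in this group of 15 were between 0.18 for PTK6 and 0.36 for NIBAN1.

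The largest falls ended at low levels. BEX3, an adaptor linked to the p75 neurotrophin receptor, went from 345 to 3.84 normalized counts (log2 fold change -6.49 ± 0.32, adjusted p 7.66e-86), and ROS1, an orphan receptor tyrosine kinase, from 424 to 6.22 (-6.09 ± 0.31). ANO1, a calcium-activated chloride channel, went from 358 to 14.9, the actin-nucleating formin FHOD3 from 602 to 53.6, and the guanine nucleotide exchange factor MCF2 from 271 to 29.4. FHOD3 has the smallest adjusted p of the table, 1.60e-130.

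The next 10 falls were smaller. The lipase-related PNLIPRP3 went from 644 to 86.3. The intermediate filament VIM, usually taken as a mesenchymal marker, fell from 977 to 143 (-2.77 ± 0.16). SCNN1G, a subunit of the epithelial sodium channel, stood at 662 in WT and 103 in KO2, and ITGB2, the beta chain of leukocyte integrins, at 221 and 34.6. P3H2, which hydroxylates collagen prolines, fell from 1553 to 297 and had the smallest SE of the 30 leading genes, 0.10. The estrogen sulfotransferase SULT1E1, the aldehyde dehydrogenase ALDH3B1, the Polycomb protein CBX6, the thioredoxin inhibitor TXNIP and the carboxypeptidase CPA4 completed the list, with log2 fold changes between -2.28 and -1.81.

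**Figure D2:**
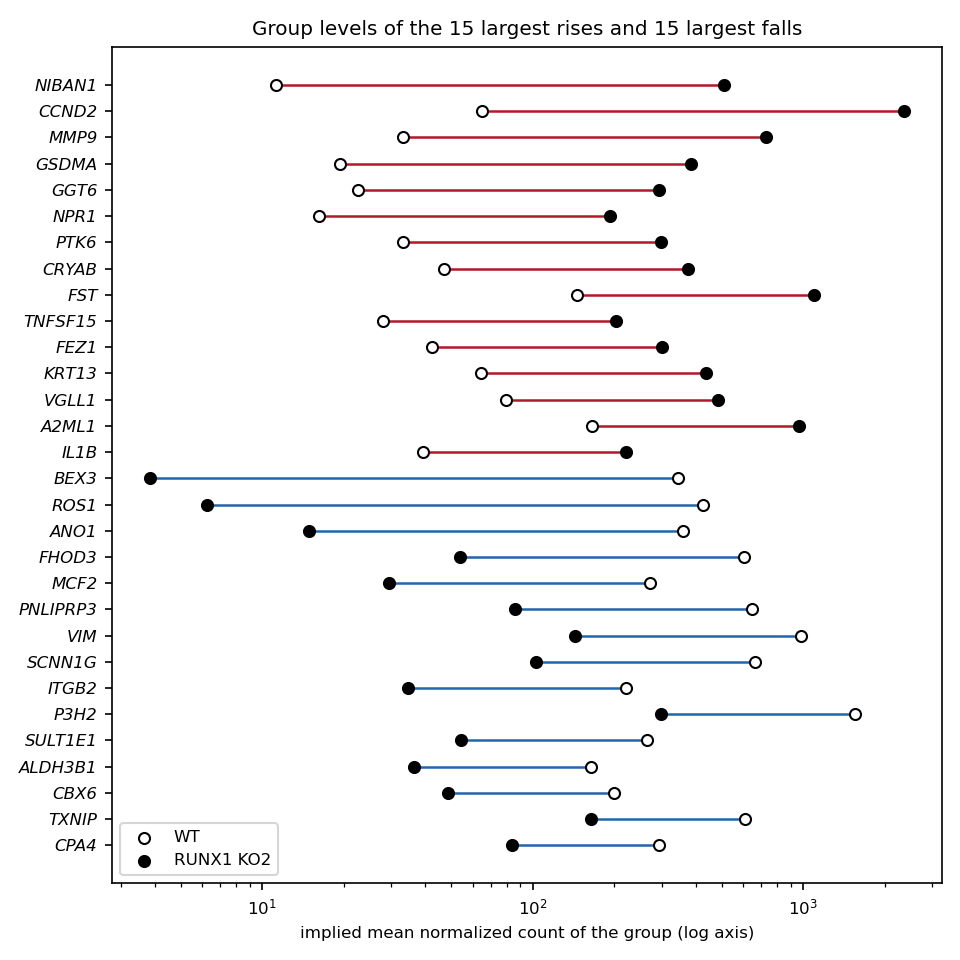
Implied group levels (normalized counts, log axis) of the 15 largest rises and 15 largest falls with a mean of at least 100, open circles for WT and filled circles for RUNX1 KO2. The falls BEX3, ROS1 and ANO1 end at 3.84, 6.22 and 14.9, whereas CCND2 ends at 2361, the highest KO2 level among the rises.

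The promoter windows of these genes were searched for the core RUNX motif. TGTGGT and TGCGGT were looked for on both strands of the RefSeq windows from 250 bases before to 50 after the start site (GRCh38.p14, a build other than the hg19 of the deposited values). Over all genes tested, 18.7% of 12014 windows held at least 1 of these motifs. The share was 14.6% of the 431 windows of genes that rose and 20.1% of the 179 of genes that fell. For TGTGGT alone the shares were 8.82% of the rises, 14.5% of the falls and 9.79% of all tested genes. For TGCGGT alone they were 6.26%, 6.15% and 9.74%. Over all 27305 promoter windows, of tested genes or not, the shares were 13.1% for TGTGGT, 7.11% for TGCGGT and 19.4% for either. A match is only a string of letters in this window, not a bound site. Among the 30 leading genes, 5 of 13 falls with a window and 1 of 9 rises hold a match upstream of the start, where 14.8% of all 8358 tested genes of that level hold one, 22.9% of 48 falls and 7.10% of 169 rises. The matches of the leading genes are shown because they place the motif beside the genes that moved most, with the match in capitals (ACCACA and ACCGCA are the motif on the opposite strand).

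BEX3: gggcaaactccaACCGCAgagcagtgatgc
FHOD3: cactttcccggcTGCGGTccggtcgttcgg
VIM: taaaaagttgggTGTGGTttcatgggggga
P3H2: aggcactagaagACCACAgaaatgcctcca
SULT1E1: aacatgactctgTGTGGTtactgcagctgc
FST: gggagaccgcccACCGCAaaccgcggagac

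In GRCh38.p14 these windows lie upstream of the annotated start at chrX:103376266-103376295 (plus strand) for BEX3, chr18:36297552-36297581 (plus) for FHOD3, chr10:17228133-17228162 (plus) for VIM, chr3:190122415-190122444 (minus) for P3H2, chr4:69860270-69860299 (minus) for SULT1E1 and chr5:53480558-53480587 (plus) for FST. The match begins 45 bases before the start site in BEX3, 59 in FST and 96 in VIM, and 142 to 154 bases before it in SULT1E1, FHOD3 and P3H2.

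Gene groups by function come next. There are 53 lists of pathways, complexes and markers and 33 families taken by symbol. For each, the number of called members is read against the 5.48% called among all genes tested, and the median log2 fold change against the median of all genes tested, 0.02. The bar plot of called members gives the 62 groups with at least 10 tested members and at least 1 call.

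**Figure D3:**
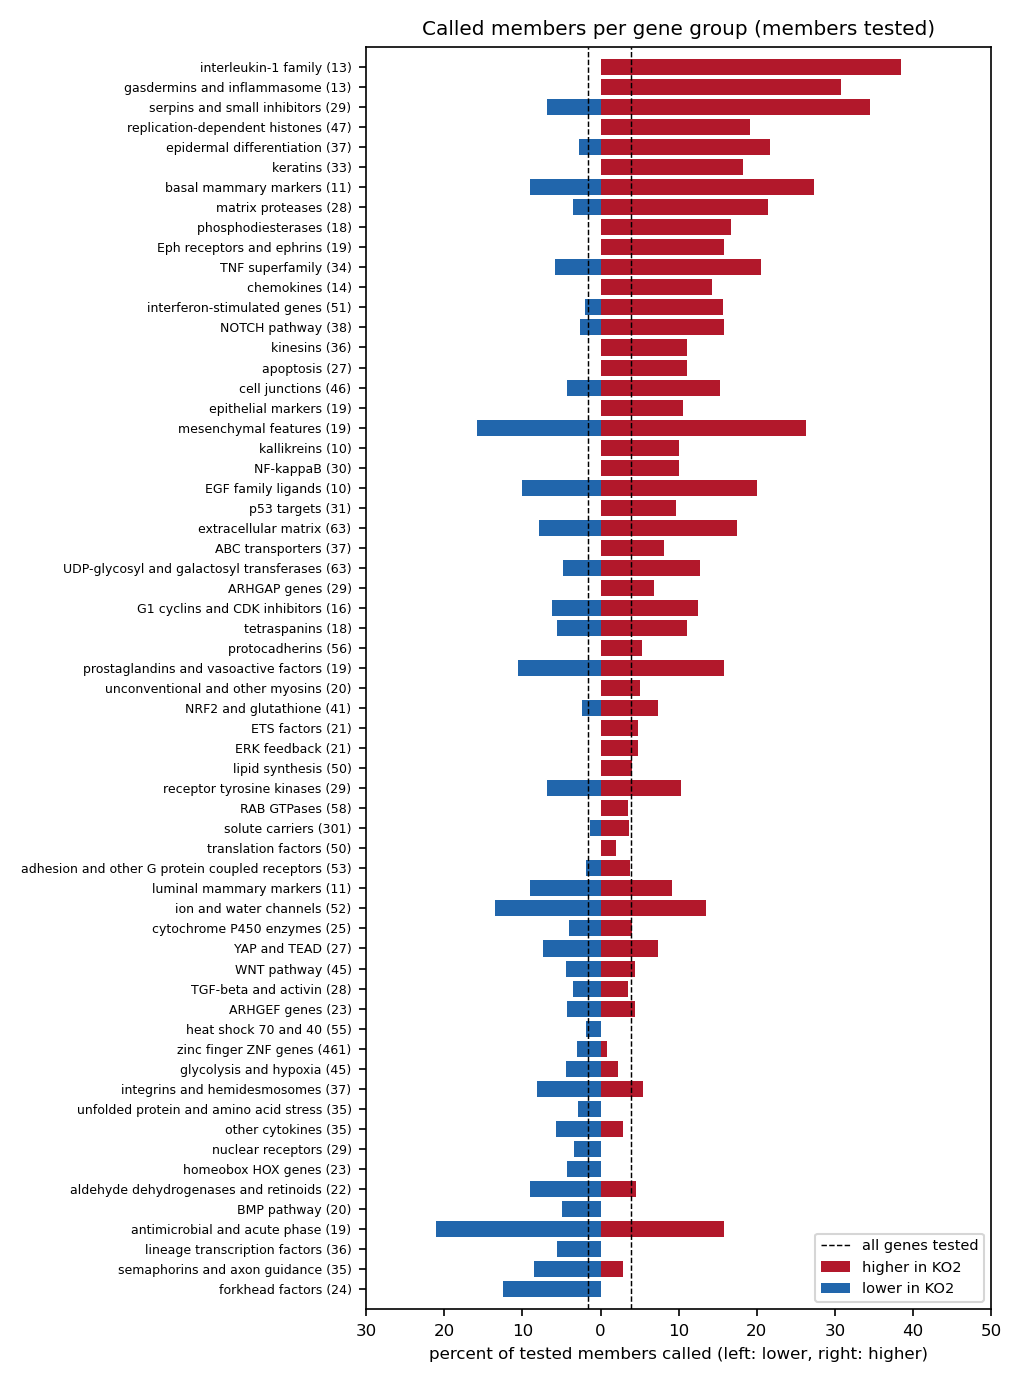
Percent of the tested members of each group that rose (red, right) or fell (blue, left) in RUNX1 KO2, with the number tested in brackets, for the 62 of 78 groups with 10 or more tested members in which a member was called. Dashed lines give the shares of all genes tested, 3.90% and 1.58%; rows are ordered from the largest excess of rises, led by the interleukin-1 family, to the forkhead factors, where only falls were called.

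The interleukin-1 family had the largest share of rises among the groups plotted. Of its 13 tested members 5 rose and none fell, and the median was 0.52. Among the ligands and antagonists IL1A went from 182 to 924 normalized counts (2.35 ± 0.28) and IL1B from 39.1 to 221. The natural antagonists moved the same way, IL1RN, which blocks the IL-1 receptor, from 204 to 739 (1.86 ± 0.15) and IL36RN from 5.96 to 38.7 (2.70 ± 0.31). Of the receptors, the decoy IL1R2 went from 12.5 to 25.9 (1.05, and 0.94 after correction for length and GC content). IL18, the most abundant ligand, stood at 3216 and 4186 and did not pass (adjusted p 0.343).

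Related inflammatory groups had smaller shares of rises. Of 14 chemokines tested 2 rose, the neutrophil attractants CXCL1 (140 to 444) and CXCL8 (69.6 to 195), and 13 of the 14 had positive fold changes. Of 30 genes of the NF-kappaB list 3 rose, among them the adhesion molecule ICAM1 (112 to 333, 1.57 ± 0.13) and the feedback inhibitor TNFAIP3 (152 to 397), and 10 passed the adjusted p alone, all upward. RELA itself, which encodes the p65 subunit, had a log2 fold change of 0.22 that was not called. In the TNF superfamily 7 of 34 rose and 2 fell. The ligands TNFSF15 (27.9 to 203) and TNFSF10, the TRAIL ligand (7.75 to 36.9), and the receptor TNFRSF14 (32.6 to 153) were higher, and the co-stimulatory pair members CD70 (28.9 to 8.10) and CD40 (33.9 to 9.68) lower. All 13 tested genes of the gasdermin and inflammasome list had positive fold changes, and 4 rose: GSDMA, GSDMB and the sensors NLRP1 (29.5 to 88.7) and NLRP3 (46.6 to 120). Leukocyte markers moved in part with these groups: of the 4 tested, CSF1R rose from 123 to 273, while CD14 (117 and 165), CD68 (142 and 180) and LAPTM5 were not called. Their part in the result was not tested, and the pan-leukocyte marker PTPRC has no row.

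Interferon-stimulated genes rose in 8 of 51 cases and fell in 1, with a median of 0.49, and 18 passed the adjusted p alone upward against 2 downward. MX1, a GTPase that restricts viruses, went from 25.1 to 91.5 (1.86 ± 0.21), the exonuclease ISG20 from 30.4 to 109, and the RNA sensor RIGI from 221 to 500 (1.18 ± 0.13). IFI44L fell from 14.7 to 6.39. The abundant IFITM3 stood at 3831 and 4057 and was not called. ISG15 and IFI27 have no row for KO2, so their response is unknown. None of the 22 antigen presentation genes was called, although 6 passed the adjusted p alone, all upward. HLA-B was one of these, with 3027 in WT and 4836 in KO2 (0.68 ± 0.22, and 0.43 with an adjusted p of 0.223 after correction for length and GC content).

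Epidermal differentiation genes were higher as well. Of 37 tested, 8 rose and 1 fell, and the median of 0.65 compares with 0.02 over all genes. IVL, which encodes the cornified envelope precursor involucrin, went from 253 to 1132 (2.16 ± 0.14), suprabasin (SBSN) from 33.7 to 134, and, picked after its value was seen, the cross-linking transglutaminase TGM1 from 434 to 917. TGM5, low in both groups, fell by 1.77 on the log2 scale. Of the 9 tested S100 proteins of this list 5 had a mean of at least 100. The median SE of the 9 was 0.34, and that of the cornified envelope genes 0.35. S100A4 rose from 513 to 1454, with an SE of 0.41 on the log2 scale, while S100A14, S100A16 and S100A10, with 18187 to 34370 counts in WT, had log2 fold changes of 0.48, 0.62 and 0.88 and did not pass. All 6 members that this table lacks although KO1 lists them with a mean of 100 or more are S100 proteins, namely S100A2, S100A3, S100A6, S100A9, S100A13 and S100P. ZNF750, a transcription factor of terminal epidermal differentiation, went from 14.9 to 102 (2.77 ± 0.33).

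Keratins rose in 6 of 33 cases and none fell. KRT13 went from 64.3 to 435 (2.76 ± 0.33), the stress keratin KRT16 from 2624 to 7734 (1.56 ± 0.34), the basal keratin KRT17 from 40126 to 96691 (1.27 ± 0.33) and the simple-epithelial KRT8 from 7566 to 15269 (1.01 ± 0.27). The other 2, KRT32 and KRT33A, had at most 2.95 counts in either group. KRT5 stood at 103876 in WT and 86567 in KO2 and KRT81 at 253606 and 240404, neither called. After correction for length and GC content KRT8 (0.94) was under the 2-fold threshold and KRT33A no longer passed (adjusted p 0.0510). The pseudogenes KRT16P1, KRT16P2 and KRT16P3 rose too, by 1.51 to 1.68 on the log2 scale, and since keratins of this group share near-identical sequence, the split of reads among KRT16, KRT17 and their copies is uncertain.

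Protease inhibitors and proteases both held many calls. Of 29 serpins and other protease inhibitors 10 rose and 2 fell, 41.4% in all. SERPINA3 went from 103 to 447, SERPINB2, an inhibitor of urokinase, from 154 to 433, A2ML1 from 166 to 963 and the complement inhibitor SERPING1 from 4.31 to 29.5. SERPINA1, alpha-1-antitrypsin, fell from 109 to 19.2 (-2.50 ± 0.22). Of 28 matrix proteases and inhibitors 6 rose and 1 fell. The plasminogen activators PLAU (829 to 2557, 1.63 ± 0.10) and PLAT (365 to 796) rose together with the sheddase ADAM8 (303 to 799) and the inhibitor TIMP2 (818 to 1762), and ADAMTS6 fell from 59.8 to 16.4. Of 10 kallikreins KLK5, a skin protease, was called (483 to 1360).

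The extracellular matrix list of 63 genes had 11 rises and 5 falls. Fibronectin (FN1) went from 1541 to 7138 (2.21 ± 0.32) and the laminin chain LAMA2 from 33.2 to 107. The collagen COL5A3 rose from 51.0 to 139, and tenascin C (TNC) was called higher as well. On the other side SPARC, a matricellular protein, fell from 72.3 to 24.5, the collagen cross-linker LOXL2 from 412 to 151 (-1.45 ± 0.13) and the laminin chain LAMC3 from 12.7 to 2.13. TGFBI, the most abundant of the list, stood at 25673 and 23627. The median of 0.32 became 0.17 after correction for length and GC content. Fibroblast markers moved in both directions, COL1A1 from 132 to 339, DCN from 11.1 to 3.63 and PDGFRA from 522 to 410, the last not called, and COL1A2 and COL3A1 have no row. Their part in the result was not tested.

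Adhesion genes were called in both directions. In the cell junction list 7 of 46 rose and 2 fell, and 17 passed the adjusted p alone upward against 2 downward. NECTIN4, a junctional adhesion molecule, went from 111 to 600 (2.43 ± 0.22), plakoglobin (JUP) from 5836 to 12122 (1.05 ± 0.13), the desmosomal cadherin DSC2 from 566 to 1175, and the connexin GJB6 from 64.5 to 152. The connexin GJA1, low in both groups, fell from 8.79 to 2.06, and the cadherin CDH4 from 202 to 78.8. Integrins were called in 1 case upward, ITGB6 (972 to 2097, 1.11 ± 0.40), and in 3 downward, ITGB2, ITGA10 (32.0 to 10.6) and ITGA4 (271 to 132). After correction for length and GC content, JUP (0.89) and ITGA4 (-0.98) were under the 2-fold threshold. The chains of the hemidesmosome integrin and its anchors were not called: ITGB4 stood at 10152 and 14915 and PLEC at 17629 and 16869.

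Genes usually grouped as mesenchymal did not move as a block. Of 19 tested, 5 rose and 3 fell, and the median was 0.13. The contractile proteins TAGLN (692 to 3658, 2.40 ± 0.29) and MYL9 (280 to 875), and FAP, a membrane protease of activated fibroblasts (556 to 1849), rose, whereas VIM, the transcription factor SNAI2 (927 to 394, -1.24 ± 0.22) and FOXC2 (65.5 to 8.14, -3.01 ± 0.29) fell. Of the 8 transcription factors in the list 5 passed the adjusted p alone downward and 1, SNAI3, upward (1.06). After correction for length and GC content SNAI3 (0.84, adjusted p 0.165) no longer passed, and TWIST1 (-0.97 before, -1.15 after) became called lower. Of the 19 epithelial markers, OVOL1 (149 to 353) and GRHL3 (134 to 309), 2 regulators of epithelial identity, rose, none fell, and 8 passed the adjusted p alone, all upward. CD24, with 6767 and 12910, came just short of a 2-fold change (0.93 ± 0.12).

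The NOTCH pathway held 6 rises and 1 fall among 38 tested genes. Of the receptors NOTCH3 went from 244 to 1088 (2.16 ± 0.26) and NOTCH4 from 5.65 to 14.2, while NOTCH2 stood at 1719 and 1748. None of the 5 ligands was called, and JAG2, the most abundant, stood at 2748 and 2523. Among modifiers DTX1 rose from 19.6 to 60.1 and DTX3 fell from 17.7 to 4.72. The HES family member HES2 rose from 819 to 2802 (1.77 ± 0.15).

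Receptor tyrosine kinases and their ligands changed gene by gene. Of 29 receptors 3 rose and 2 fell, and the median was -0.04. FGFR3 went from 248 to 695 (1.49 ± 0.09), and CSF1R rose, while ROS1 was nearly lost and AXL, a receptor of the TAM family, fell from 1108 to 329 (-1.75 ± 0.12). MET, with 1984 and 2118, was not called. Of 10 EGF family ligands HBEGF (369 to 1049, 1.51 ± 0.15) and EREG (103 to 256) rose and NRG4 fell, while AREG, the most abundant, stood at 6785 and 6746. In the Eph and ephrin list EPHB2 (734 to 1516) and the ligand EFNA1 (211 to 470; 0.96 on the log2 scale after correction for length and GC content) rose, as did EPHA10, and none of the 19 fell. Both neuropilins, co-receptors of semaphorins and VEGF, fell, NRP1 from 528 to 206 and NRP2 from 678 to 273.

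Proliferation genes were lower by small amounts that did not reach 2-fold. None of the 52 genes of the mitosis list was called, but 51 of the 52 had a negative fold change, against 7437 of 15636 over all genes tested, and 23 passed the adjusted p alone downward and none upward. The median was -0.60. CCNB1, the mitotic cyclin, stood at 7210 in WT and 4630 in KO2 (-0.64 ± 0.11, adjusted p 1.21e-07) and CDC20, which activates the anaphase-promoting complex, at 7242 and 4909 (-0.56 ± 0.20). TOP2A had a similar difference, 5489 and 3360 (-0.71 ± 0.32), with an adjusted p of 0.131. In the DNA replication list 55 of 56 were negative, the median was -0.42, and 21 passed the adjusted p alone, all downward, among them RRM2, a subunit of ribonucleotide reductase (7396 and 5240), which no longer passed after correction for length and GC content (adjusted p 0.0820). The medians of the mitosis and replication lists were -0.47 and -0.36 in RUNX1 KO1, and -0.27 and -0.20 in CBFB KO.

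Of 16 G1 cyclins, kinases and CDK inhibitors 3 were called. Besides CCND2, the CDK inhibitor CDKN1A (p21) rose from 2867 to 6075 (1.08 ± 0.14, and 0.94 after correction for length and GC content, under the 2-fold threshold), and the CDK inhibitor CDKN2C fell from 228 to 107 (-1.09 ± 0.19). CCND1, the main D-type cyclin by count, stood at 4962 and 5595 and CDK4 at 3353 and 2386, neither called. Of 31 p53 targets 3 rose and none fell. TP53I3 went from 1577 to 4650 (1.56 ± 0.30), and 10 passed the adjusted p alone, all upward. MYC stood at 6559 and 6140.

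**Figure D4:**
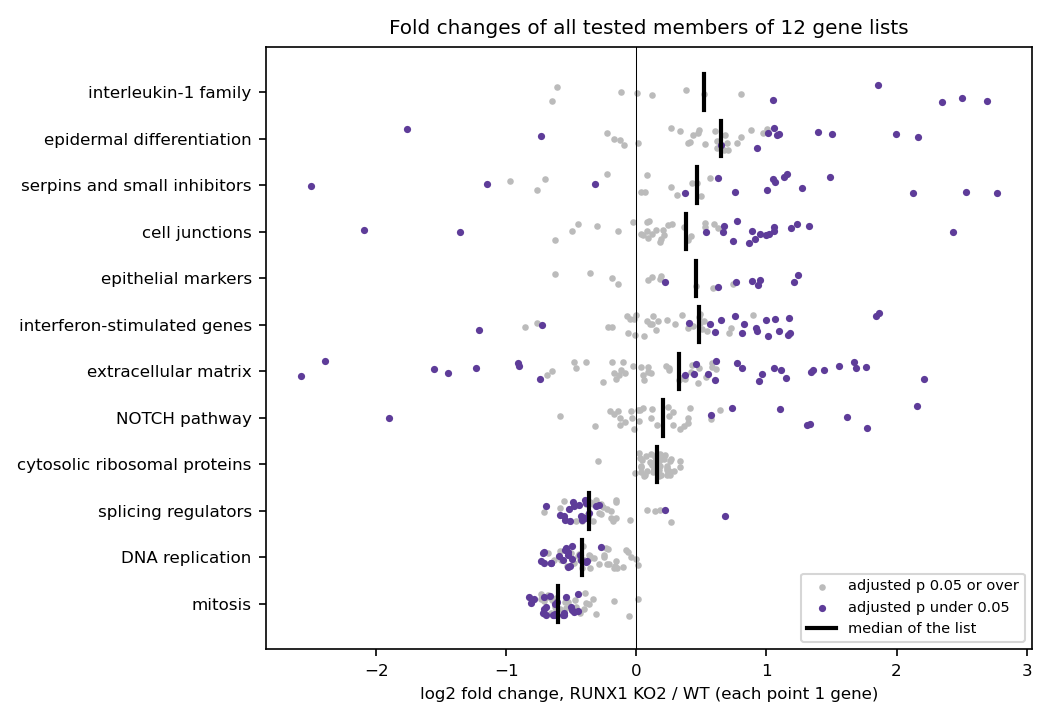
Log2 fold changes (RUNX1 KO2 over WT) of all tested members of 12 lists, 1 point per gene, purple where the adjusted p is under 0.05 and grey otherwise, with a black bar at the list's median. The mitosis, DNA replication and splicing lists have medians of -0.60, -0.42 and -0.36, with 6 of 50 splicing regulators right of 0, whereas the interleukin-1 and epidermal lists reach beyond 2.

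RNA and protein synthesis genes held a single 2-fold change. Of 50 splicing regulators 44 were negative, with a median of -0.36, and 18 passed the adjusted p alone downward against 2 upward. The heterogeneous nuclear ribonucleoproteins HNRNPA1 (34513 and 25678), HNRNPA2B1 (28727 and 19168) and HNRNPC (19283 and 13458) were among them, with log2 fold changes of -0.43, -0.58 and -0.52, the first not past the adjusted p after correction for length and GC content (0.0888). No splicing regulator was called. Of 50 translation factors only EEF1A2, the elongation factor isoform of muscle and neurons, was called, from 315 to 1300 (2.04 ± 0.30). EEF1A1 stood at 207345 and 177962. Of 86 cytosolic ribosomal proteins 45 were tested. None passed even the adjusted p (DESeq2), 0 had an unadjusted p under 0.05, and 43 of the 45 were positive. The median was 0.16 (0.08 after correction for length and GC content) where KO1 has -0.48. The members are not the same, because 38 have no row in the KO2 table. Their median SE in KO2 was 0.34, so changes the size of either median were not detectable here at a typical member.

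Metabolic and transport families held scattered calls. The 301 tested solute carriers had 11 rises and 4 falls, 4.98%, close to the share of all genes. The potassium chloride cotransporter SLC12A7 (90.5 to 442, 2.29 ± 0.12) and the fructose transporter SLC2A5 (39.8 to 159) led the rises. In the channel list 7 of 52 rose and 7 fell: with ANO1 fell the sodium channel subunits SCNN1G and SCNN1B (108 to 21.9), and the glycerol channel AQP3 (101 to 372) and the heat-sensing TRPV3 (29.7 to 105) rose. Of 37 ABC transporters 3 rose, among them the lipid carriers ABCA3 (46.6 to 174) and ABCA12 (523 to 1055). Lipid synthesis genes were called in 2 of 50 cases, glycolysis and hypoxia genes in 3 of 45 and the unfolded protein list in 1 of 35. That one is DDIT4, an inhibitor of mTORC1, which fell from 8887 to 3919 (-1.18 ± 0.08). In the prostaglandin list the terminal synthase PTGES fell from 11655 to 4896 (-1.25 ± 0.26) and the inducible cyclooxygenase PTGS2 rose from 47.7 to 123. All 8 tested metallothioneins were negative and none was called, and MT2A stood at 77986 and 56447 with an SE of 0.39.

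Glycosylation and sulfation enzymes moved both ways. Of 63 glycosyltransferases 8 rose and 3 fell (17.5%). The sialyltransferase ST6GALNAC2 (144 to 419) and the fucosyltransferase FUT3 (365 to 973) rose, and B3GALNT1, which makes globoside, fell from 45.1 to 2.58 (-4.13 ± 0.37). Of 7 sulfotransferases the cholesterol sulfotransferase SULT2B1 rose (71.6 to 249) and SULT1E1 fell.

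Secreted host defence factors also moved both ways. Of 19 antimicrobial and acute phase genes 4 fell and 3 rose. The scavenger receptor protein DMBT1 went from 113 to 6.38 (-4.14 ± 0.31) and the complement regulator CFI from 16.7 to 3.77, whereas the skin antimicrobial RNASE7 rose from 93.9 to 386 (2.04 ± 0.16).

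Among transcription factors, ZNF and forkhead genes held more falls than rises. Of 461 ZNF zinc finger genes 4 rose and 14 fell (3.90%), with ZNF671 (12.8 to 1.88), ZNF365 (66.0 to 14.6) and ZNF829 (38.4 to 9.35) among the falls. Of 24 forkhead factors 3 fell and none rose. Of 36 lineage factors DLX3, a homeobox factor of the epidermis (55.6 to 4.89, -3.51 ± 0.32), and TP73 (41.5 to 11.7) fell. PPARG fell among 29 nuclear receptors, from 256 to 113. Of 37 chromatin regulators and 46 ubiquitin-specific proteases none was called. The TGF-beta, BMP and WNT lists gave 2 calls of 28, 1 of 20 and 4 of 45 tested. FST led these, WNT7B rose from 235 to 493 (1.07, and 0.95 after correction for length and GC content), and WNT5A (39.4 to 13.3) and PORCN, which acylates WNT proteins (176 to 81.1), fell.

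Of the calls, 806 were protein-coding genes by RefSeq, which is 5.81% of the 13863 tested. Long noncoding RNAs were called in 32 of 925 cases (3.46%). H19, an imprinted RNA, fell from 227 to 88.5, and MIR675, whose precursor lies in H19, from 16.3 to 7.90; both were picked after their values were seen. These are counts over the locus, not of mature miRNA. Replication-dependent histones, whose transcripts mostly lack a poly(A) tail, rose in 9 of 47 tested cases and none fell. H2BC4 went from 20.6 to 75.8 and H2BC21 from 41.7 to 144. The labels name an mRNA kit and the methods describe removal of ribosomal RNA, and the copies of a histone share sequence, so these levels are uncertain.

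No chromosome stood out by its median. Among genes whose mean reached 100, the median log2 fold change ran from -0.11 on chromosome 13 (180 genes) to 0.10 on chromosome 19 (580 genes). Over runs of 25 neighbouring genes in RefSeq order the highest median was 0.40, from LYPD3 to ZNF296 on chromosome 19, where the same genes have 0.10 in RUNX1 KO1 and CBFB KO, and the lowest was -0.30, from ARLN to NAA15 on chromosome 4, with -0.14 in KO1 and -0.11 in CBFB KO.

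The table is less precise than the other 2 of the series. Over genes whose mean reached 100 the median SE was 0.21, against 0.10 in RUNX1 KO1 and 0.12 in CBFB KO, and the median ratio for the same gene was 2.01 over KO1 and 1.72 over CBFB KO. At the median SE the smallest fold that passes an adjusted p of 0.05 was 1.49 here, 1.18 in KO1 and 1.24 in CBFB KO, so that changes between these folds were not detectable in this table at a typical gene. The 8 size factors implied by genes with a single read ranged from 0.56 to 1.29, against 0.92 to 1.10 for the 8 libraries of the KO1 table and 0.66 to 1.18 for the 6 of the CBFB KO table, and the means of this table sum to 1.65e+07 normalized counts.

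The SE depended on transcript length in this table. By the longest transcript in GENCODE 29, the median SE was 0.32 for the 214 genes under 1000 bases, 0.18 for the 1804 genes of 3000 to 4000 bases and 0.25 for the 2059 genes of 6000 bases and over. In KO1 the class medians lay between 0.10 and 0.12, and in CBFB KO between 0.12 and 0.13. The share of genes that passed the adjusted p followed, with 7.01% of the shortest class and 20.1% of the class with the smallest SE. The median fold change was 0.12 for the shortest class and -0.02 for the longest, while in KO1 it ran the other way, from -0.32 to 0.14.

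Short transcripts are also those that the table lacks. The KO1 table lists 18517 genes, of which 769 have no row here, and 354 of these have a mean of at least 100 there. Their median longest transcript is 1450 bases, against 3803 for the genes of that level that both tables list. The longest annotated transcript need not be the one expressed, which was not checked. By this measure the absent ribosomal protein genes RPL37 and RPS29 have 7686 and 7062 bases. The share without a row falls from 30.5% of 298 genes under 1000 bases to 9.63%, 3.22% and 1.08% in the next classes and 0.237% of 2106 genes of 6000 bases and over. The reverse is rare: 369 genes are listed here and not in KO1, the highest at a mean of 97.3. The CBFB KO table lists 353 of the 354.

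**Figure D5:**
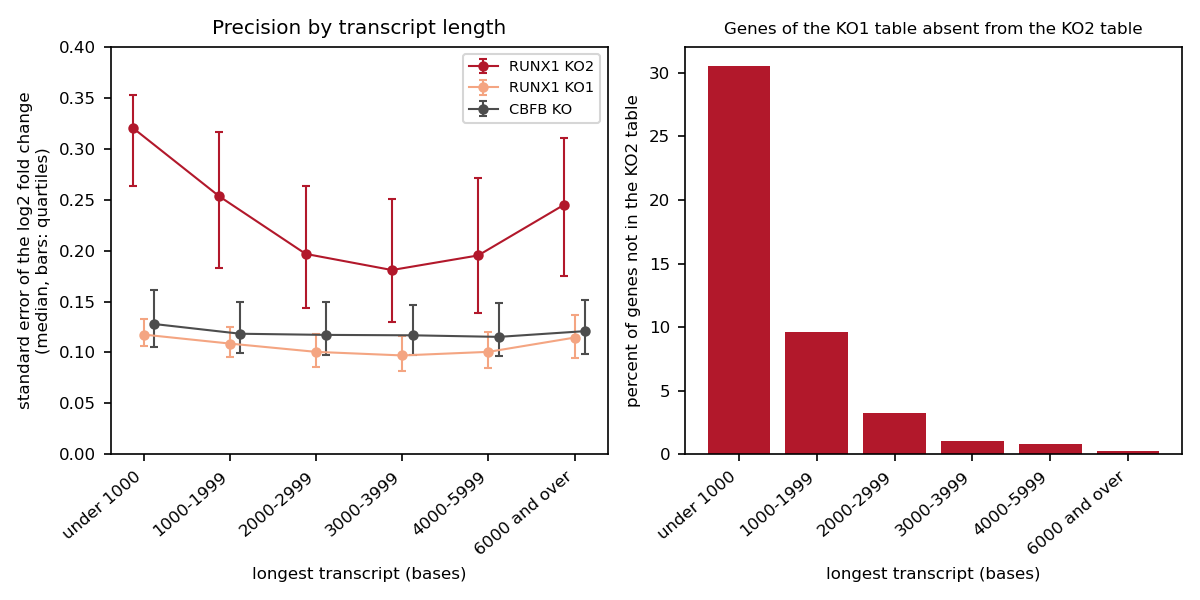
Left, median SE of the log2 fold change with quartiles as bars, by class of the longest transcript in bases, for genes whose mean reached 100, in each of the 3 tables. Right, percent of genes of the KO1 table with such a mean that have no row in the KO2 table, from 30.5% under 1000 bases to 0.237% at 6000 and over.

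Some families lost more members than others. Among cytosolic ribosomal proteins whose KO1 mean reached 100, 38 of 83 (45.8%) have no row, as have 13 of 38 complex I subunits and 13 of 78 mitochondrial ribosomal proteins, against 354 of 10699 over all genes (3.31%). Of 225 ZNF genes 1 is absent. The most abundant absent gene is S100A2, with a mean of 143399 in the KO1 table, followed by the actin-binding peptide TMSB10 (42975), RPL13A, S100A6, RPL13, RPS14, RPS27A, the glutathione transferase GSTP1, the 14-3-3 protein SFN, RPLP1, LGALS1, RPS12, the myosin light chain MYL6, RPL27A and the ferritin chain FTH1. Together the 354 hold 6.87% of the summed means of the KO1 table.

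Of the 354 genes, 10 rose in RUNX1 KO1 and none fell there, where 2.44% of all 10699 genes of that level rose and 0.776% fell, and the response of clone 2 is unknown for them. In KO1 the cytokine IL32 had a log2 fold change of 4.77, the basal keratin KRT14 2.95, CLIC3 2.54, the cystatin CST6 2.44, H2AC19 1.71, S100A9 1.64, PCSK1N 1.61, the inflammasome adaptor PYCARD 1.27, RHOV 1.25 and TYMP 1.09.

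RUNX1 KO2 and CBFB KO share no library, so the difference between their fold changes was tested (normal test of the difference over its combined SE, Benjamini-Hochberg). Of 14503 genes tested in both, 421 differed (2.90%), 235 with the higher value in RUNX1 KO2 and 186 with the lower. The knocked-out gene and the experiment cannot be told apart in this contrast. Of the genes that rose in RUNX1 KO2, 152 also rose in CBFB KO, which is 24.9% of the KO2 rises, 25.8% of the 589 that the CBFB KO table lists, and 59.1% of the 257 CBFB KO rises. Of the falls, 84 were shared, 34.0% of the KO2 falls, 34.9% of the 241 listed there, and 44.4% of the 189 in CBFB KO. Over all genes tested in CBFB KO, 1.72% rose and 1.26% fell. A call in opposite directions was found once, for the ubiquitin hydrolase UCHL1, with a log2 fold change of 1.16 in KO2 and -1.97 in CBFB KO.

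The leading genes differ in how far CBFB KO went with them. For ROS1 the log2 fold changes were -6.09 in RUNX1 KO2 and -6.30 in CBFB KO, for FHOD3 -3.49 and -3.78, for FST 2.91 and 3.33, and for VGLL1 2.61 and 2.59, none of them a difference that passed. CCND2 (5.19 and 7.58, adjusted p of the difference 1.01e-10) and IL1B (2.50 and 4.85, 2.09e-14) rose less in KO2. A2ML1 (2.53 and 0.09, 2.94e-09), GGT6 (3.70 and 1.45, 9.11e-08) and KRT13 (2.76 and 0.63, 9.29e-05) rose more. MMP9, IL1A, CXCL8, HBEGF, PLAU, TNFAIP3 and SULT1E1 have no row in the CBFB KO table. In RUNX1 KO1, which is compared with the same WT libraries, the values of CCND2, IL1B, A2ML1, GGT6 and KRT13 were 4.98, 3.37, 3.04, 3.38 and 1.85.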

How the data were processed

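RNA of 8 MCF10A libraries (4 RUNX1 KO2, 4 WT) was sequenced by the authors, whose processing notes name Trimmomatic, STAR, DESeq2 and hg19, with versions not given in the sources used here. The authors' deposited table holds, per gene, the mean normalized count (a signal over the 8 libraries), log2 fold change and its SE (log2), a Wald score, a p-value and an adjusted p-value. These are the authors' own comparison columns. They are used because the comparison is defined by this table, and 0 columns of values per sample were left unused. From it group levels, calls (adjusted p under 0.05, fold of at least 2), counts per list, and the difference from the authors' deposited CBFB KO table were computed with Python 3.11.15, pandas 2.3.3 and scipy 1.17.1; functions were tested on simulated data. IDs were matched to RefSeq for 18052 of 18117 genes, and lengths came from GENCODE 29. Depth is known only as means, which limits precision at low counts. Of the IDs, 23 had symbols turned into dates and were renamed by ID.

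Named genes are RUNX1, RUNX2, RUNX3 and CBFB, the 15 largest rises and falls with a mean of at least 100, in each list, role or family up to 4 called per direction and 3 others by mean, the 15 most abundant absent genes and the 5 genes per direction that differ most from CBFB KO. Absent genes that KO1 calls, and genes in counts of 5 or fewer, were added after their values were seen. The comparison and the lists were chosen with earlier results of these data known. Alternatives changed thresholds, filters, centring and the length and GC trend. Not all genes so named are described, and some results are not reported here.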

Additional observations from a re-analysis of the deposited data

Results flagged for a closer look

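In 10 genes, the 5 with the smallest adjusted p in each direction, the response of RUNX1 KO2 differed most clearly from that of CBFB KO (values are the KO2 minus the CBFB KO log2 fold change). CBFB itself (4.59) and NUDT12 (4.56), EMC10 (2.84), ANXA6 (1.98) and PNLIPRP3 (2.28) had the higher value in KO2. For NUDT12 the fold changes were -0.02 in KO2 and -4.58 in CBFB KO, and for EMC10 -0.47 and -3.31. EYA2, a transcriptional coactivator and phosphatase, differed by -5.06, SCARF2 by -4.74, the zinc finger factor WT1 by -4.34, VIM by -3.41 and the chaperonin subunit CCT5 by -1.18. EYA2 stood at 167 normalized counts in WT and 5.64 in KO2, SCARF2 at 82.3 and 4.32, and WT1 at 78.0 and 4.45, while their log2 fold changes in CBFB KO were 0.18, 0.49 and 0.21. In RUNX1 KO1 they were -4.38, -4.10 and -3.49, against the same WT libraries. VIM had -2.77 in KO2, -1.74 in KO1 and 0.64 in CBFB KO. Each of the 10 passed under every alternative in which it was tested, and EYA2, SCARF2 and WT1 were left out where a mean of 100 was required, since their KO2 means are lower.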

How the results depend on the processing

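The 857 called genes (610 higher, 247 lower) became 2319 (1369 and 950) without a fold threshold, 145 (85 and 60) at a fold of 4, 168 (108 and 60) when tested against a fold of 2, and 288 (228 and 60) with a mean of at least 100. The cause is the construction of each alternative. They were 840 with adjustment over all listed genes and 794 after removal of the length and GC trend, of which 737 were the same calls, and 672 with a mean of at least 10, an alternative chosen after seeing the data. The share of rises among the calls was 71.2% and ranged from 58.6% at a fold of 4 to 79.2% with a mean of at least 100. The 421 differences from CBFB KO became 234 where both means reached 100, 424 after centring and 416 after the trend. No named gene past the adjusted p changed direction, and changes of sign among the other named genes were not counted. Of all 593 named genes, 570 kept their side of both thresholds after the trend, which moved them by -0.31 to 0.18. Of the called ones 20 were no longer called and 3 others became so, CD24, PERP and TWIST1. The cause was not tested. Counts per list moved by over 1.5 times in 5 of 86 groups after the trend and in none after centring. No paired analysis was possible because the tables hold no values per library, and leaving out each replicate could not be run for the same reason. Low counts, here a mean under 100, limit 569 of the 857 calls.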
